A study of Mus musculus with 34 samples.

Results

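The mouse cathepsin genes measured here were Ctsa, Ctsb, Ctsc, Ctsd, Ctsf, Ctsh, Ctsk, Ctsl, Ctss and Ctsz. They were taken by symbol, and all 10 were found among the 23951 genes listed in every file. Transcript levels were followed in the hippocampus of 4 groups of mice that all carry floxed Hdac1 alleles. The control mice (Hdac1f/f, n = 4) had no transgene, and the Hdac1 cKO mice (Hdac1f/f, Nestin-Cre, n = 5) lost Hdac1 through Cre driven by the Nestin promoter, which acts in neurons and astrocytes and not in microglia. The 5XFAD mice (Hdac1f/f, 5XFAD, n = 6) carried the 5XFAD transgenes, which are driven by the Thy1 promoter and give amyloid plaques. The compound mice (Hdac1f/f, Nestin-Cre, 5XFAD, n = 5) carried both. Per their labels these control and Hdac1 cKO mice were 13 to 14 months old, and the 5XFAD and compound mice 13 months. GFAP+ nuclei, sorted from the cortex with an antibody to the astrocyte protein GFAP, came from 3 control (Hdac1f/f) and 4 Hdac1 cKO (Hdac1f/f, Nestin-Cre) mice aged 13 months. Each library came from 1 mouse, and levels are in FPKM, fragments scaled to transcript length and to the mapped fragments of the library.

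Cathepsins are proteases of the endosome and lysosome. They are made as inactive precursors, carried from the Golgi to the lysosome on mannose 6-phosphate and other sorting receptors, and activated there at acid pH by removal of a propeptide. Ctsb, Ctsc, Ctsf, Ctsh, Ctsk, Ctsl, Ctss and Ctsz are papain-like cysteine proteases (8 of the 10 members), Ctsd is an aspartic protease, and Ctsa is a serine carboxypeptidase. In the brain, cathepsin D is used by neurons and glia alike, whereas cathepsin S is known as an enzyme of microglia and other antigen-presenting cells. Microglia that gather at amyloid plaques are known to express many lysosomal genes.

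Upstream sequence is shown for the 3 members with the widest spread over the 20 hippocampal libraries, Ctsz, Ctsd and Ctss (root mean square deviations from the mean of 0.851, 0.810 and 0.787 on the log2 scale), and for Ctsk, the chromosomal neighbour of Ctss. Each line gives the 250 bases before the RefSeq transcript start in build GRCm38.p6, read on the strand of the gene. Capitals mark the E-box CACGTG, the core read by TFEB and related factors of lysosomal genes, and GGAAGT, the core read by ETS factors such as PU.1, on either strand. The Ctsd stretch is chr7:142387828-142388077 on the minus strand, and the Ctsz stretch is chr2:174439040-174439289 on the minus strand. The Ctss stretch is chr3:95526536-95526785 and the Ctsk stretch is chr3:95498960-95499209, both on the plus strand.
Ctsd: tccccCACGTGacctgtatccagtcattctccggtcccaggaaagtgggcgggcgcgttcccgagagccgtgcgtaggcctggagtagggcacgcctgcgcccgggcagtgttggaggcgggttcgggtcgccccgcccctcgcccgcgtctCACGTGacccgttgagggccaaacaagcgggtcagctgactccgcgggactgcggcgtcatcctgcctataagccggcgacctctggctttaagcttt
Ctsz: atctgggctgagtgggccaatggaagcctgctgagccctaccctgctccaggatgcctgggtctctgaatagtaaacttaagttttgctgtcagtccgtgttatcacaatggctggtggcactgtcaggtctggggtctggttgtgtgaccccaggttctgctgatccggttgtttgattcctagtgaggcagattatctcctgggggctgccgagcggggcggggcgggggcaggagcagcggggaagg
Ctss: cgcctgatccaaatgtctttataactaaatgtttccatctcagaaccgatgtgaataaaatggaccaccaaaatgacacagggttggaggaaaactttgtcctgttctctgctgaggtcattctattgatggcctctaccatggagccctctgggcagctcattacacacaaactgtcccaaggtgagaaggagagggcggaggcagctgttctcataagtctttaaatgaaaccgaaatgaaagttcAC
Ctsk: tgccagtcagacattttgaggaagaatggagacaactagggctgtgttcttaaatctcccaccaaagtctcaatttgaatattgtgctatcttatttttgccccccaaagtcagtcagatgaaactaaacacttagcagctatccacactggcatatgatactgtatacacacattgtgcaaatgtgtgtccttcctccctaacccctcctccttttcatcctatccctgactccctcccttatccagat

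Windows of 300 bases, from 250 before to 50 after the start, were available for 8 members, with 2 starts for Ctsa and none for Ctsb and Ctsh. The palindrome CACGTG was found for 4 of the 8 (Ctsa, Ctsd, Ctsf and Ctsl), beside 8.09% of 27025 genes with a window of the same length. Counted from the start, it began at -245 and -98 in Ctsd and at -12 and 6 in Ctsa. The longer form TCACGTGA, which contains CACGTG, was found in Ctsa and Ctsd (2 of 8, beside 1.12% of genes). GGAAGT or its reverse complement was found in Ctsa, Ctsc, Ctsk and Ctss (4 of 8, beside 26.5% of genes). In Ctss it began at -2, so that only its first 2 bases stand in capitals above, and in Ctsk at 23, beyond the printed bases. The GC box GGGCGG was found in Ctsc, Ctsd, Ctsf, Ctss and Ctsz (5 of 8, beside 38.2% of genes). Ctsz held neither CACGTG nor GGAAGT in its window. These matches describe letters in the windows and no site was measured.

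The labels were checked first. Hdac1 measured 6.42, 8.71, 10.7 and 5.91 FPKM in the control mice and 3.00, 3.03, 2.62, 2.70 and 2.36 FPKM in the Hdac1 cKO mice. It lay between 6.10 and 9.64 FPKM in the 5XFAD mice and measured 1.82, 2.52, 1.15, 1.86 and 2.24 FPKM in the compound mice, so no mouse with Nestin-Cre reached a mouse without it. In the GFAP+ nuclei the groups overlapped, with 14.5, 9.91 and 22.3 FPKM in controls and 9.71, 11.5, 5.80 and 8.73 FPKM in Hdac1 cKO nuclei (adjusted p = 0.984). Thy1, whose promoter drives the 5XFAD transgenes, lay between 303 and 388 FPKM without 5XFAD and between 1563 and 2357 FPKM with it. FPKM summed to 725060 to 881139 per hippocampal library and to 465218 to 525685 per nuclear library, and relative depth spanned 0.754 to 2.35 and 0.869 to 1.26. Markers of the choroid plexus differed widely: the summed level of 9 markers was 598 FPKM in control mouse 1 and 13141 to 20559 FPKM in the other 3 controls, but 64.1 to 1644 FPKM in the Hdac1 cKO mice, 61.1 to 8031 FPKM in the 5XFAD mice and 65.1 to 14113 FPKM in the compound mice.

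All 10 cathepsins were detected in every hippocampal library. In the control hippocampus the order of mean FPKM was Ctsd, Ctss, Ctsb, Ctsz, Ctsl, Ctsa, Ctsf, Ctsh, Ctsc and Ctsk. Ctsd and Ctss alone made up 33.3% and 23.4% of the cathepsin total, whereas Ctsk made up 0.251%. Neighbours in that order were not always separate. The ranges of Ctsz (31.2 to 54.9 FPKM) and Ctsl (34.9 to 51.2 FPKM) overlapped in the controls, as did those of Ctsa (17.5 to 26.6 FPKM) and Ctsf (18.3 to 21.3 FPKM) and those of Ctsh (3.46 to 8.18 FPKM) and Ctsc (2.16 to 5.71 FPKM). FPKM divides by transcript length although these libraries read 3' ends, so the order between genes holds on this scale only. The 10 genes summed to 504 ± 57.5 FPKM (SD, n = 4) in control, 450 ± 30.03 (n = 5) in Hdac1 cKO, 1024 ± 62.2 (n = 6) in 5XFAD and 1309 ± 385 FPKM (n = 5) in compound mice. The 5XFAD sum was 2.03 times the control sum, with no overlap between the groups.

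**Figure D1:**
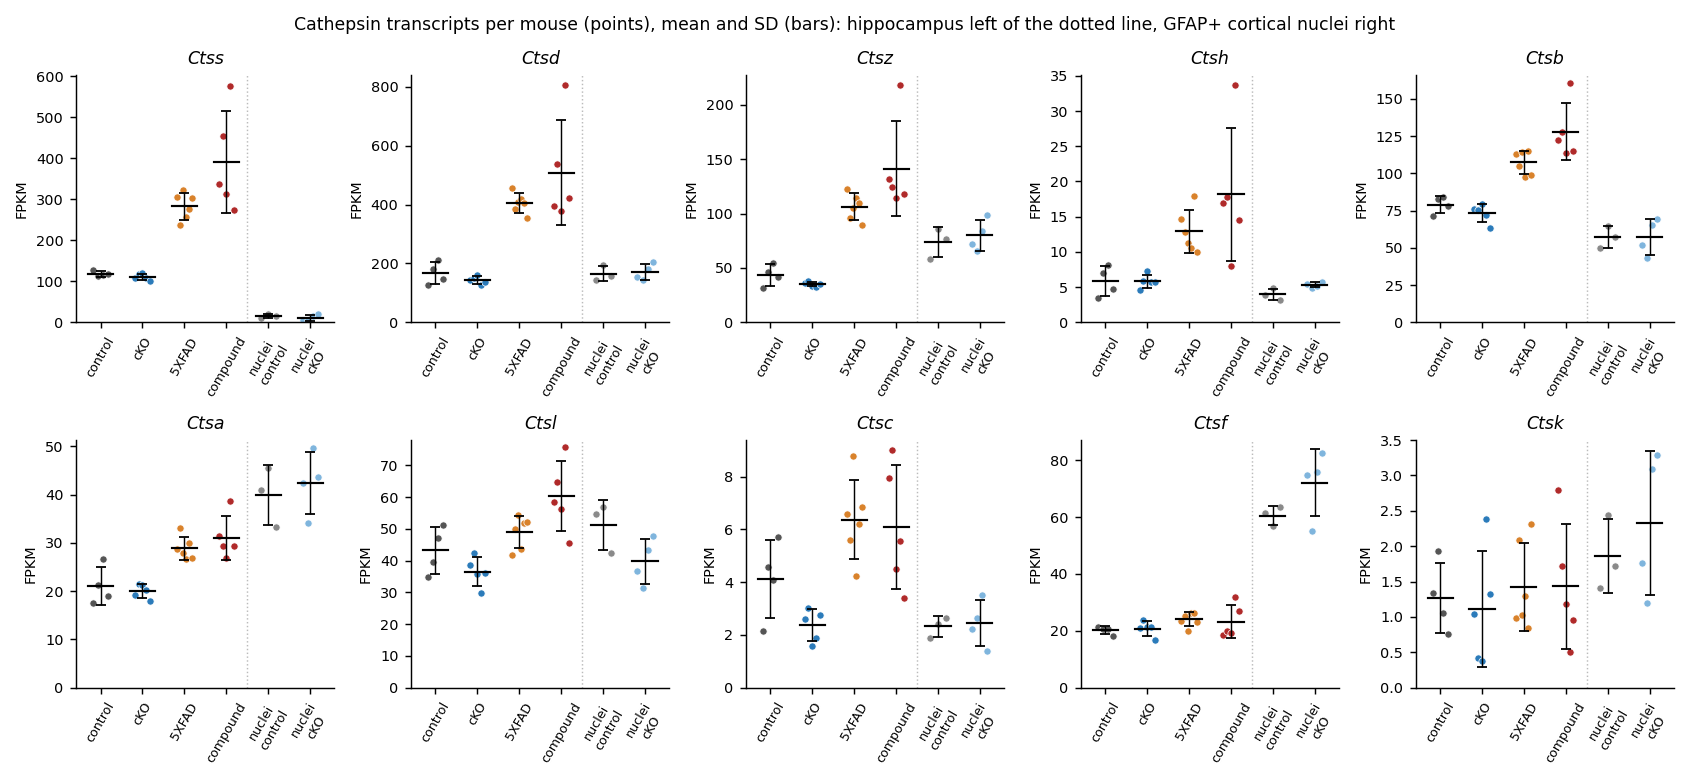
Transcript level (FPKM, linear axes from 0) of each cathepsin in every mouse, with points for mice, a bar for the group mean and whiskers of 1 SD. Hippocampal groups stand left of the dotted line and GFAP+ nuclei of the cortex right of it. Ctss, Ctsd, Ctsz, Ctsb and, by a small margin, Ctsa lie higher in every 5XFAD and compound mouse than in any hippocampus without the transgenes. Ctsf and Ctsk overlap between the hippocampal groups, and Ctss is low in the nuclei (4.40 to 20.3 FPKM).

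The first question was which cathepsins differ with the amyloid transgenes. In 5XFAD mice against controls, 5 of the 10 cathepsins were higher at an adjusted p under 0.05, namely Ctss, Ctsd, Ctsz, Ctsh and Ctsb, and none was lower. Across all 14402 genes tested in this comparison 0.708% were called by the same rule. With the choroid plexus score as a covariate 3 were called, Ctss, Ctsd and Ctsz, and Ctsb (adjusted p = 0.0579) and Ctsh (adjusted p = 0.109) were not. That fit took in all 4 hippocampal groups, and a fit over the 4 groups without the covariate called 4 members. Over the 20 alternative fits of this comparison the log2 fold change of Ctsb ran from 0.39 to 0.57 (0.44 as reported). That of Ctsh ran from 0.87 to 1.73 (1.05 as reported). The methods of the study instead take a 1.5-fold change with p below 0.05, and name no test for them. These thresholds were applied here to the fold change of FPKM + 1 and the limma p before adjustment. By them Ctsd, Ctsh, Ctss and Ctsz passed (4 of 10), beside 2.95% of all genes. The median log2 fold change was 0.50 over the members and -0.0088 over all genes tested, and all 10 members had a positive value. For 6 members, those called and Ctsa, every 5XFAD mouse lay above every control, as it did for 1.92% of all genes. In bulk tissue, fewer or more cells of a type and less or more RNA per cell cannot be told apart. The control and Hdac1 cKO libraries also carry a separate run of sample numbers from the 5XFAD and compound libraries. Whether these sets were prepared together is not given in the sources used here. A difference between the sets cannot be told apart from the 5XFAD difference, here or in compound against control or Hdac1 cKO.

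Ctss (chr3:95330708-95360325 in mm9, plus strand) encodes cathepsin S, an endopeptidase that stays active at neutral pH and trims the invariant chain of MHC class II. It measured 128, 113, 115 and 117 FPKM in the control mice and 109, 117, 120.1, 109 and 102 FPKM in the mice with Hdac1 cKO alone. The 5XFAD mice ran from 236 through a median of 289 to 323 FPKM, and the compound mice measured 338, 455, 312, 576 and 274 FPKM. The mice with and without the 5XFAD transgenes did not overlap. In 5XFAD mice Ctss was higher by 1.25 ± 0.10 (log2 fold change ± SE, adjusted p = 3.63e-05), the fourth smallest p of the 14402 genes. Among the controls its SD (6.63 FPKM around 118) was small beside this difference.

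Ctsd (chr7:149557053-149573943 in mm9, minus strand) encodes cathepsin D, the major aspartic protease of the lysosome. It measured 128, 182, 213 and 148 FPKM in control mice and 144, 151, 159, 126 and 136 FPKM in Hdac1 cKO mice. The 5XFAD mice ran from 353 through a median of 408 to 455 FPKM. The compound mice measured 396, 539, 377, 808 and 424 FPKM, and no mouse with 5XFAD overlapped any mouse without it. The log2 fold change in 5XFAD mice was 1.29 ± 0.13 (adjusted p = 0.000151), or 2.44-fold. Ctsd shares 163 exonic bases (6.47% of its own) with a gene model on the same strand, 6330512M04Rik, so reads there could belong to either.

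Ctsz (chr2:174252994-174264540 in mm9, minus strand) encodes cathepsin Z, also called cathepsin X, a carboxypeptidase. The control mice measured 31.2, 46.3, 54.9 and 41.3 FPKM and the Hdac1 cKO mice 35.8, 37.7, 33.8, 32.9 and 35.5 FPKM. The 5XFAD mice ran from 89.8 through a median of 108 to 123 FPKM, and the compound mice measured 131, 124, 115, 219 and 118 FPKM. Again no mouse with 5XFAD overlapped one without it, and compound mouse 4 stood far above its group. Ctsz was higher in 5XFAD mice by 1.29 ± 0.14 on the log2 scale (adjusted p = 0.000276).

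Ctsh (chr9:89948990-89970927 in mm9, plus strand) encodes cathepsin H, an aminopeptidase. It was far less abundant, at 3.46, 6.999, 8.18 and 4.71 FPKM in controls and 4.60, 5.92, 7.24, 5.67 and 5.79 FPKM in Hdac1 cKO mice. The 5XFAD mice ran from 10.04 through 12.1 to 17.9 FPKM, all above the controls. The compound mice measured 16.996, 17.8, 8.03, 33.7 and 14.5 FPKM, and compound mouse 3 fell within the control range. The log2 fold change in 5XFAD mice was 1.05 ± 0.21 (adjusted p = 0.0344).

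Ctsb (chr14:63741302-63764758 in mm9, plus strand) encodes cathepsin B, an endopeptidase that also removes dipeptides from the carboxyl end. It measured 71.1, 82.6, 84.0 and 77.9 FPKM in controls and 76.3, 75.7, 79.2, 72.3 and 63.5 FPKM in Hdac1 cKO mice. The 5XFAD mice ran from 97.7 through 109 to 115 FPKM, and the compound mice measured 123, 128, 114, 160.5 and 115 FPKM. No mouse with 5XFAD overlapped one without it, though the step was smaller than for Ctss, Ctsd or Ctsz. The log2 fold change in 5XFAD mice was 0.44 ± 0.09 (adjusted p = 0.0371). Ctsb shares 769 exonic bases (16.2% of its own) with Fdft1 on the opposite strand, and whether the authors counted by strand is not given in the sources used here. Fdft1, which encodes squalene synthase, had log2 fold changes of 0.37 in 5XFAD against control (adjusted p = 0.134) and 0.58 in compound against Hdac1 cKO (adjusted p = 0.0142), and reads of both genes cannot be told apart in the shared bases. Because these libraries read 3' ends, the share of reads in shared bases can differ from the share of bases, for this and other overlaps.

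Ctsa (chr2:164658373-164666532 in mm9, plus strand) encodes the carboxypeptidase also known as protective protein, which stabilises lysosomal neuraminidase and beta-galactosidase. It measured 17.5, 21.3, 26.6 and 19.0 FPKM in controls, 19.2, 21.4, 21.2, 20.3 and 17.9 FPKM in Hdac1 cKO mice, and 31.4, 29.3, 26.8, 38.6 and 29.2 FPKM in compound mice. The 5XFAD mice ran from 26.63 through 28.2 to 33.1 FPKM, and the lowest of them stood just above the highest control, at 26.61 FPKM. The log2 fold change of 0.45 ± 0.12 did not pass (adjusted p = 0.152), although the groups did not overlap, and it passed without control mouse 3 (adjusted p = 0.0449). Pltp and Neurl2, on the opposite strand, share 495 and 324 exonic bases with Ctsa (10.5% and 6.87% of those of Ctsa). Their log2 fold changes in 5XFAD mice were -0.18 (adjusted p = 0.749) and -0.07 (adjusted p = 0.943).

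Ctsl (chr13:64464522-64471614 in mm9, minus strand) encodes cathepsin L, a broad endopeptidase. The controls measured 34.9, 39.7, 47.3 and 51.2 FPKM, the Hdac1 cKO mice 38.8, 42.4, 35.9, 29.7 and 36.1 FPKM, and the compound mice 58.6, 64.9, 56.4, 75.8 and 45.7 FPKM. The 5XFAD mice (41.7 to 54.4 FPKM, median 50.9) overlapped the controls, and the log2 fold change of 0.18 ± 0.12 did not pass (adjusted p = 0.619). Ctsc (chr7:95426595-95459398 in mm9, plus strand) encodes cathepsin C, a dipeptidyl peptidase that activates serine proteases of immune cells. It was low and scattered, at 2.16, 4.57, 4.09 and 5.71 FPKM in controls, 2.61, 3.03, 1.59, 1.88 and 2.76 FPKM in Hdac1 cKO mice, 4.22 to 8.78 FPKM (median 6.40) in 5XFAD mice and 7.94, 9.02, 4.49, 5.55 and 3.41 FPKM in compound mice. Its log2 fold change in 5XFAD mice was 0.55 ± 0.21 (adjusted p = 0.376), and the groups overlapped.

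Ctsf and Ctsk were the members that were called in no hippocampal comparison with limma. Ctsf (chr19:4855129-4860912 in mm9, plus strand) encodes cathepsin F. It measured 21.3, 20.5, 20.6 and 18.3 FPKM in controls, 20.8, 23.7, 21.2, 21.2 and 16.7 FPKM in Hdac1 cKO mice, 20.1 to 26.3 FPKM (median 24.4) in 5XFAD mice and 18.3, 19.9, 19.1, 31.9 and 26.8 FPKM in compound mice. All hippocampal groups overlapped, and no hippocampal comparison of Ctsf passed (adjusted p from 0.417 to 0.95). Ctsk (chr3:95303208-95313284 in mm9, plus strand) encodes cathepsin K, the collagen-degrading protease of osteoclasts. It was the lowest of the members, between 0.372 and 2.80 FPKM over the 20 hippocampal libraries, and its log2 fold change in 5XFAD mice was 0.09 ± 0.21 (adjusted p = 0.92). Ctsk and Ctss lie 17423 bases apart on the same strand with 0 annotated genes between them, yet the log2 fold changes of this pair in 5XFAD mice were 0.09 and 1.25.

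**Figure D2:**
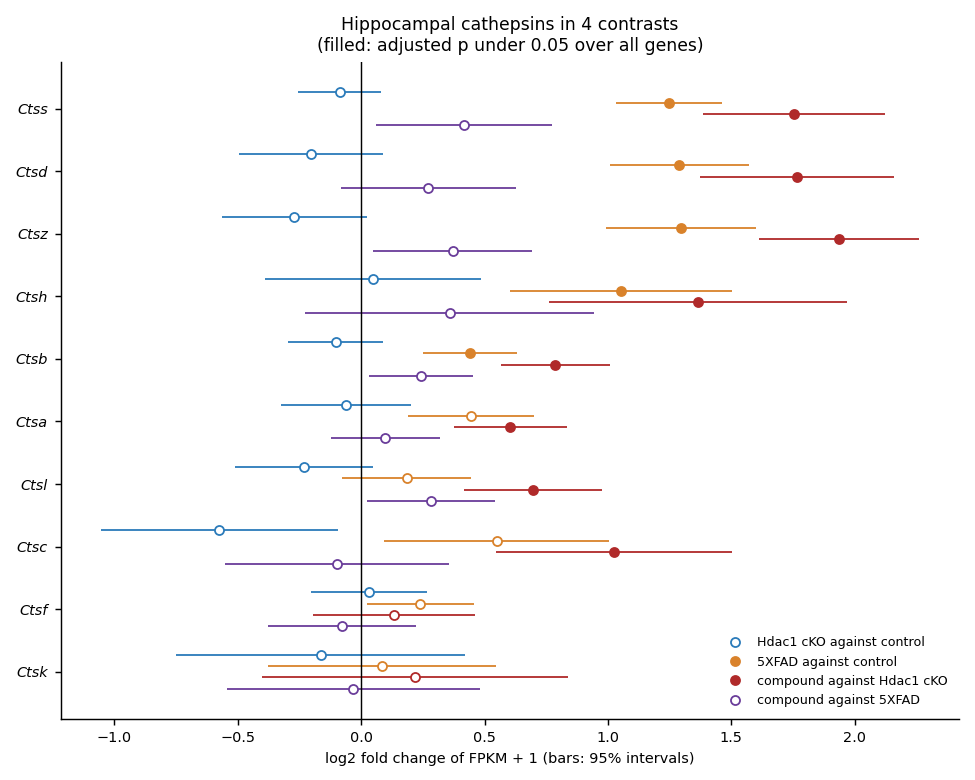
Log2 fold change of FPKM + 1 for each cathepsin in 4 hippocampal contrasts, with bars for 95% intervals and filled points for an adjusted p under 0.05 over all genes. In Hdac1 cKO against control and in compound against 5XFAD no point is filled. In 5XFAD against control 5 points are filled, and in compound against Hdac1 cKO 8 are.

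Loss of Hdac1 without the transgenes was compared next. In Hdac1 cKO mice against controls 0 of the 10 cathepsins passed with limma, beside 0.154% of all 14265 genes, and 0 of 10 passed the thresholds of the study, beside 3.36%. At an unadjusted p under 0.05 there was 1 member, Ctsc, with a log2 fold change of -0.57 ± 0.22 (adjusted p = 0.323). Across all genes 11.7% had such a p, so 1 of 10 members is near the background. The other 9 lay between -0.27 (Ctsz) and 0.05 (Ctsh), and their 95% intervals were narrow for the abundant genes. That of Ctss ran from -0.25 to 0.08 and that of Ctsb from -0.30 to 0.09. The median over the members was -0.13. Control mouse 1, the control with few choroid plexus transcripts, had the lowest level of its group for Ctsa, Ctsb, Ctsc, Ctsd, Ctsh, Ctsl and Ctsz. Without that mouse 290 genes were called in place of 22, and again 0 members, but values moved away from 0 for Ctsc (-0.79, adjusted p = 0.0557), Ctsz (-0.42, adjusted p = 0.0824) and Ctsd (-0.33, adjusted p = 0.278). With the choroid plexus score as a covariate the count was also 0. With only the 12 hippocampal libraries under 2000 FPKM of summed choroid plexus markers, which leaves control mouse 1 as the lone control, it was again 0, but the values of Ctsa, Ctsb, Ctsc, Ctsd, Ctsf, Ctsl and Ctsz turned their sign.

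The amyloid transgenes were also compared among mice with Nestin-Cre, as the compound against the Hdac1 cKO group. Here 8 of the 10 cathepsins were higher, all but Ctsf and Ctsk, beside 1.49% of 14195 genes. The same number, 8, passed the thresholds of the study, beside 3.55% of genes, and the median log2 fold change was 0.91 over the members and -0.0096 over all genes. Ctsz had the largest value of the members, 1.94 ± 0.15 (adjusted p = 2.04e-05, the fifth smallest p of all genes), followed by Ctsd (1.77 ± 0.18, adjusted p = 0.000276), Ctss (1.75 ± 0.17, adjusted p = 0.000171) and Ctsh (1.36 ± 0.28, adjusted p = 0.0297). Ctsc (1.02 ± 0.22, adjusted p = 0.0358), Ctsb (0.79 ± 0.10, adjusted p = 0.000874), Ctsl (0.70 ± 0.13, adjusted p = 0.0142) and Ctsa (0.60 ± 0.11, adjusted p = 0.00904) also passed. For these 8 genes every compound mouse lay above every Hdac1 cKO mouse, as it did for 2.44% of all genes. Ctsf (0.13 ± 0.15) and Ctsk (0.22 ± 0.29) did not pass. Without compound mouse 4, the highest of its group for 8 members, 7 were called, and Ctsc was the one lost (adjusted p = 0.079). Ctsc and Ctsh each lost their call when any 1 Hdac1 cKO mouse, or compound mouse 1 or 2, was left out, which left 6 called.

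Against the controls, 4 cathepsins were higher in the compound mice, namely Ctss (1.67 ± 0.19, adjusted p = 0.00255), Ctsz (1.66 ± 0.20, adjusted p = 0.00317), Ctsb (0.68 ± 0.11, adjusted p = 0.0124) and Ctsd (1.56 ± 0.24, adjusted p = 0.0244). The share of all 14348 genes was 0.662%. With Ctsh, 5 passed the thresholds of the study, beside 4.24% of genes. Ctsh had a log2 fold change of 1.41 with a wide error of 0.35 (adjusted p = 0.158). This comparison shares its 4 control mice with the comparison of 5XFAD mice above, so its calls are no second sample of them.

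Whether Hdac1 loss altered the cathepsins on the 5XFAD background was asked directly. In compound against 5XFAD mice 0 of 10 passed with limma, beside 0.00698% of 14326 genes, and 0 of 10 passed the thresholds of the study, beside 1.28%. At an unadjusted p under 0.05 there were 4 members, Ctss (0.42 ± 0.17), Ctsz (0.37 ± 0.15), Ctsl (0.28 ± 0.12) and Ctsb (0.24 ± 0.10), each with an adjusted p of 0.734, beside 6.61% of all genes. The values of Ctsd (0.27 ± 0.17) and Ctsh (0.36 ± 0.27) carried larger errors. Without compound mouse 4 the values were smaller, at 0.27 for Ctss, 0.20 for Ctsz and for Ctsl, 0.16 for Ctsb, 0.09 for Ctsd and 0.11 for Ctsh. The 95% interval for Ctss ran from 0.06 to 0.77 and for Ctsd from -0.08 to 0.63. The compound mice were also more scattered, with an SD of 179 FPKM for Ctsd against 34.0 FPKM in 5XFAD mice and 124 against 32.7 FPKM for Ctss. The interaction, which tests whether the 5XFAD difference itself depends on Hdac1, called 0 of 10 members with limma and 0 of 14389 genes (0%). By the thresholds of the study 1 member passed, Ctsz, beside 4.07% of genes. At an unadjusted p under 0.05 it gave 4 members, Ctsz, Ctsl, Ctsb and Ctss, beside 8.97% of all genes. The interaction value of Ctsz was 0.64 ± 0.22 (adjusted p = 0.395) and that of Ctsl 0.51 ± 0.18 (adjusted p = 0.415). With only the libraries low in choroid plexus markers these were 0.14 and 0.26, with adjusted p of 0.922 and 0.818.

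Markers of several cell types were counted in the same comparisons. In 5XFAD against control 10 of 17 microglia markers were higher and none lower, beside 0.708% of all genes called. Their summed level was 411 to 516 FPKM in controls, 440.2 to 518 FPKM in Hdac1 cKO mice, 1093 to 1473 FPKM in 5XFAD mice and 1370.5 to 2742 FPKM in compound mice. The cathepsin sum stood at 438 to 575, 417 to 479.7, 953 to 1111 and 1033 to 1949 FPKM in the same groups. Compound mouse 4 held the top value of both sums. With limma none of the 17 markers was called in Hdac1 cKO against control or in compound against 5XFAD. In these comparisons 1 and 8 of them had an unadjusted p under 0.05, beside 11.7% and 6.61% of all genes. The part of microglia number in the cathepsin values was not tested. Of 10 astrocyte markers, only Gfap was called in 5XFAD against control (higher by 1.90 ± 0.12, adjusted p = 1.86e-06). There 6 of the 10 had positive and 4 negative values, with a median of 0.07. Only Gfap (1.97 ± 0.17, adjusted p = 4.49e-05) and Aqp4 (0.86 ± 0.14, adjusted p = 0.0068) were called in compound against Hdac1 cKO, both higher. Across all genes 1.49% were called in that comparison. The summed astrocyte markers were 970.4 to 1088 FPKM in controls, 982 to 1099.7 FPKM in Hdac1 cKO, 1086 to 1247 FPKM in 5XFAD and 1175 to 1311 FPKM in compound mice. Of 8 oligodendrocyte markers, none was called in 5XFAD against control and only Cldn11 in compound against Hdac1 cKO (higher by 0.66 ± 0.15, adjusted p = 0.0432). The oligodendrocyte sum in compound mouse 4 was 2114 FPKM, against 1298 to 1518 FPKM in the other compound mice. The part of these cells in the cathepsin values was not tested either. None of 10 neuron or 8 endothelial markers was called in either comparison. In 5XFAD against control 2 neuron markers had positive and 8 negative values (median -0.12). Of the endothelial markers 5 had positive and 3 negative values there (median 0.03). Sums of 7 perivascular macrophage markers (7.07 to 30.4 FPKM over the 5XFAD mice, 9.56 to 25.3 FPKM over the controls) overlapped between these groups.

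**Figure D3:**
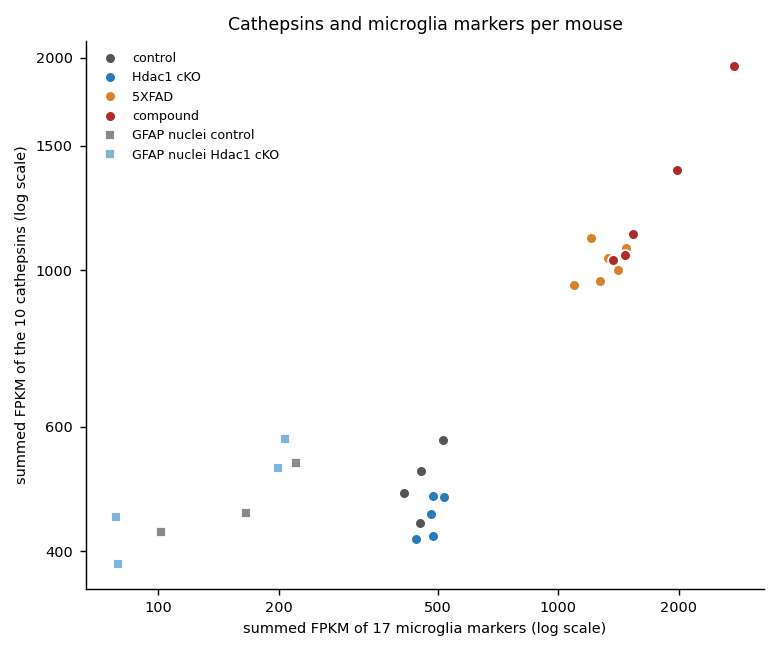
Summed FPKM of the 10 cathepsins against summed FPKM of 17 microglia markers, both on log axes, with 1 point per mouse (circles, hippocampus; squares, GFAP+ nuclei). The 5XFAD and compound mice reach at least 953 FPKM of cathepsins and 1093 FPKM of markers, clear of the mice without the transgenes, and compound mouse 4 is at the top right.

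Profiles over the 20 hippocampal libraries were compared by the root mean square difference of mean-centred log2(FPKM + 1) values over 8266 genes. The gene nearest to Ctsd was Ctsz (0.126), followed by the complement genes C1qb (0.164) and C1qc (0.203), beside a median of 0.850 over all genes. Among the nearest to Ctss were C1qb (0.162) and C1qc (0.196), beside a median of 0.827. The nearest to Ctsh was Laptm5 (0.289), a lysosomal membrane protein of immune cells. Ctsa and Ctsb were close to each other (0.122). Ctsa was closest to Clu (0.115), which encodes the astrocyte-secreted chaperone clusterin, and the list for Ctsb held the oligodendrocyte gene Cldn11 (0.144) and its overlapping neighbour Fdft1 (0.146). Ctsl was nearest to Rgs10 (0.158) and Npc2 (0.162), and Ctsf to Lgi3 (0.0998), Rtkn (0.136) and Nelfb (0.141). These measures describe the same 20 libraries, whose groups all members share.

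Genes that act with the cathepsins were counted by role. Of 8 tested cathepsin inhibitors, 2 were higher in 5XFAD mice and 3 in compound against Hdac1 cKO mice, beside 0.708% and 1.49% of all genes called. Cst7, which encodes cystatin F, an inhibitor held in the lysosome of immune cells, measured 0.715 to 2.22 FPKM in controls and 81.9 to 148 FPKM in 5XFAD mice (log2 fold change 5.71 ± 0.21, adjusted p = 1.23e-08). Serpina3n, a secreted inhibitor of serine proteases rather than of the papain family, was higher by 1.64 ± 0.15 (adjusted p = 7.16e-05). Cst3, which encodes the abundant secreted cystatin C, was called in compound against Hdac1 cKO mice (0.50 ± 0.09, adjusted p = 0.00911) and not in 5XFAD against control. Of 7 activators and partners, Grn, which encodes the precursor of lysosomal granulins, was higher in 5XFAD mice (0.93 ± 0.14, adjusted p = 0.00578). Both Grn (1.00 ± 0.16, adjusted p = 0.005) and the cholesterol carrier Npc2 (0.85 ± 0.14, adjusted p = 0.00664) were higher in compound against Hdac1 cKO mice.

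None of the 13 genes for sorting enzymes to the lysosome, such as the mannose 6-phosphate receptors, was called in any of the 7 comparisons with limma. At most 1 had an unadjusted p under 0.05 in a comparison, beside 4.70% to 11.7% of all genes. Their median log2 fold change was 0.08 in 5XFAD against control and 0.03 in compound against Hdac1 cKO. Of 12 tested genes for the lysosomal membrane and proton pump, 2 were higher in 5XFAD mice, beside 0.708% of all genes. Both are known as genes of phagocytes: Cd68 (1.94 ± 0.24, adjusted p = 0.00177) and Laptm5 (1.51 ± 0.15, adjusted p = 0.000151). No tested subunit of the proton pump was called. In Hdac1 cKO against control Cd63, a tetraspanin of late endosomes, was lower, with a log2 fold change of -0.83 ± 0.13 (adjusted p = 0.0315), at 192 to 262 FPKM against 305 to 454 FPKM. All 9 choroid plexus markers had negative values in that comparison (median -2.60). With the choroid plexus covariate or the replicate block 0 genes were called in it, so the lost call was not particular to Cd63. Against Hdac1 cKO mice, 3 of the 12 membrane and pump genes were higher in compound mice, beside 1.49% of all genes. They were Cd68 (2.57 ± 0.20, adjusted p = 3.22e-05), Laptm5 (1.41 ± 0.23, adjusted p = 0.00844) and Cd63 (1.10 ± 0.15, adjusted p = 0.00136). Of 7 tested regulators, none was called with limma in 5XFAD against control, where 4 had an unadjusted p under 0.05, beside 10.7% of all genes. In compound against Hdac1 cKO mice Irf8 (1.48 ± 0.19, adjusted p = 0.000874), Spi1 (1.37 ± 0.27, adjusted p = 0.0183) and Stat3 (0.55 ± 0.12, adjusted p = 0.034) were higher. Spi1 encodes PU.1 and Irf8 its partner in myeloid cells. Tfeb, Tfe3 and Mitf, whose products read the E-box, were not called in these comparisons. Of the genes of MHC class II and its loading, Ifi30, which encodes a lysosomal thiol reductase and no MHC molecule, was the 1 of 5 called in 5XFAD mice (higher by 1.07 ± 0.20, adjusted p = 0.0257). H2-Ab1, an MHC class II chain, was the 1 of 4 called in compound against Hdac1 cKO mice (higher by 1.14 ± 0.19, adjusted p = 0.00582). In compound against 5XFAD mice all 5 had negative values, with a median of -1.87. By the thresholds of the study 4 passed, beside 1.28% of all genes. With limma none was called, and 4 had an unadjusted p under 0.05, beside 6.61%. Their summed level was scattered, at 12.3 to 255 FPKM in 5XFAD and 10.2 to 20.7 FPKM in compound mice.

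The GFAP+ nuclei held a different mix of cathepsins. Libraries of nuclei and of whole hippocampus were made by different methods from different tissue, so their levels are set side by side without a test. Astrocyte markers summed to 3038 to 3723 FPKM in the nuclei and to 970.4 to 1311 FPKM in the hippocampus, and microglia markers to 78.6 to 221 FPKM in the nuclei. Ctsd led the nuclei too, at 143, 193 and 158 FPKM in control nuclei and 155, 142, 180.2 and 205 FPKM in Hdac1 cKO nuclei. Ctss was low, at 10.1, 20.3 and 14.8 FPKM in control nuclei and 5.43, 4.40, 15.1 and 19.4 FPKM in Hdac1 cKO nuclei. It made up 3.21% of the cathepsin sum in control nuclei, whereas it made up 23.4% in the control hippocampus. The summed microglia markers of the same nuclei, 101, 221 and 165 FPKM and then 78.6, 79.5, 199 and 207 FPKM, were lowest in the nuclei with the least Ctss, and their part in it was not tested. Ctsf was high, at 61.3, 56.8 and 63.5 FPKM in control nuclei and 74.8, 55.1, 75.9 and 82.4 FPKM in Hdac1 cKO nuclei, or 12.9% of the sum in control nuclei against 4.01% in the control hippocampus. Ctsa (33.3 to 49.7 FPKM) and Ctsz (58.6 to 98.5 FPKM) were also well represented in the nuclei.

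**Figure D4:**
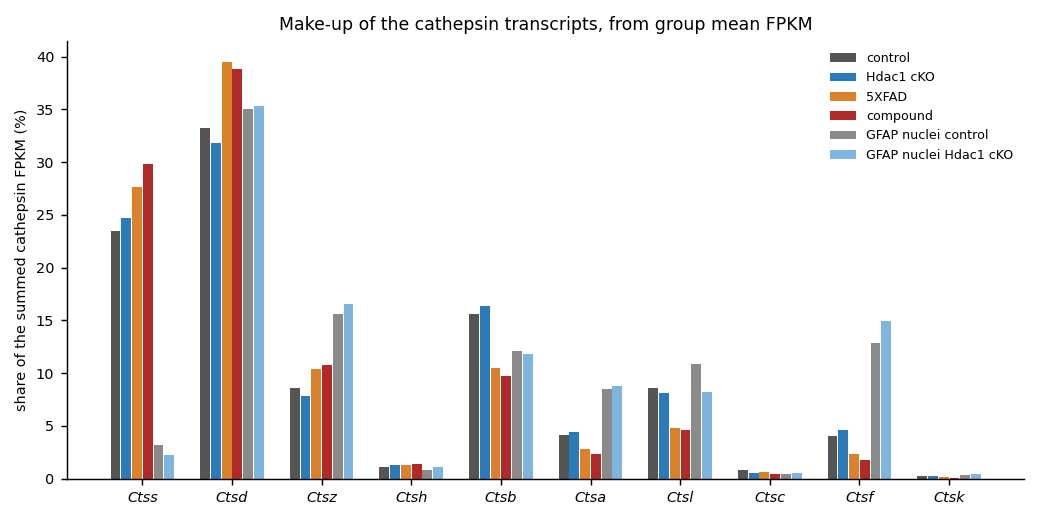
Share of each cathepsin in the summed cathepsin FPKM (percent, from group means) in the 4 hippocampal groups and the 2 groups of GFAP+ nuclei. Ctsd holds 31.8% to 39.5% in all 6 groups, Ctss holds 23.4% to 29.9% in the hippocampus and 2.29% to 3.21% in the nuclei, and Ctsf holds 12.9% to 14.9% in the nuclei.

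Between Hdac1 cKO and control nuclei 0 of 10 cathepsins passed with limma, beside 0.0133% of 15070 genes, and 0 of 10 passed the thresholds of the study, beside 2.58%. None had an unadjusted p under 0.05 either, beside 4.70% of genes. The median log2 fold change was 0.07 over the members. Ctsl had a value of -0.37 ± 0.18 and Ctss of -0.59 ± 0.51, both with an adjusted p of 0.984. Ctsh measured 3.86, 4.83 and 3.16 FPKM in control nuclei and 5.51, 4.91, 5.11 and 5.68 FPKM in Hdac1 cKO nuclei. It was the 1 member of 10 whose nuclear groups did not overlap, with a log2 fold change of 0.36 ± 0.20 (adjusted p = 0.984), beside 5.72% of all genes in either direction. Hdac1 itself overlapped between these groups, as given above.

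Another 13 mouse genes of the cathepsin family were listed, of which 3 or fewer passed the filter on low values in any comparison. None was called with limma, and only in the interaction did 1 have an unadjusted p under 0.05, beside 8.97% of all genes. Ctso, which encodes cathepsin O, measured 49.8 ± 10.1 FPKM (SD, n = 3) in control nuclei and 44.0 ± 7.45 FPKM (n = 4) in Hdac1 cKO nuclei beside group means of 5.50 to 6.66 FPKM in the hippocampus. Its log2 fold change was -0.08 in 5XFAD against control and 0.19 in compound against Hdac1 cKO.

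The calls differed in how far they rested on single mice. In 5XFAD against control Ctsd, Ctss and Ctsz were called with each of the 10 mice left out in turn. Ctsb was called in 2 and Ctsh in 3 of those 10 fits, and the count fell from 5 to 3 without control mouse 1, 2 or 4 or 5XFAD mouse 1, 2 or 5. With only the libraries low in choroid plexus markers, 1 control and 2 5XFAD mice among them, 1 member was called, Ctsz (adjusted p = 0.0275), while Ctsd (1.69) and Ctss (1.05) had adjusted p of 0.0758 and 0.257. In compound against control the count fell from 4 to 2 without control mouse 4, which left Ctss and Ctsz, and Ctsd lost its call without control mouse 1, 2 or 4 or compound mouse 2 (adjusted p from 0.053 to 0.108). In compound against Hdac1 cKO Ctsa, Ctsb, Ctsd, Ctsl, Ctss and Ctsz were called in all 20 alternatives.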

How the data were processed

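The authors sequenced hippocampal total RNA as 3' Digital Gene Expression libraries and RNA of sorted GFAP+ cortical nuclei as SMART-Seq v4 libraries, aligned reads with Tophat2 and computed FPKM with Cufflinks 2.0.0 on the UCSC annotation of mm9. The deposited FPKM values, 1 file per mouse, were used as they stand. No counts are given, so no count model, interval or floor from counts was computed, and relative depth was estimated from the smallest steps between values. Of 34 samples, 27 were used; 1 control library of GFAP+ nuclei and 6 ChIP samples were not analysed here.

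A gene was tested where its FPKM averaged 0.5 or more in the libraries compared. Values were taken as log2(FPKM + 1) and fitted by limma 3.58.1 (R 4.3.3) with robust moderation and a trend of variance on level, using only the groups compared and no covariate. The interaction was fitted over all 20 hippocampal mice. Fold changes are on that log2 scale, which understates those of low genes. P-values were adjusted by Benjamini-Hochberg over all genes tested and called under 0.05. Intervals cover 95%, from limma's moderated degrees of freedom. The fits were run on simulated normal data with known changes, added only to genes above a set level. Genes varied independently there, so the simulation does not cover low genes or shared shifts such as choroid plexus content. P-values measure the spread between mice, 1 library each.

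The members and gene lists were chosen with earlier results of these data known. All members are named; genes of a list are named by size of change among those called. Alternatives were a pseudocount of 0.1, no filter or one at 1 FPKM, quantile and median scaling, limma without trend and robust moderation, the study's thresholds, a replicate block, 1 fit over 4 groups, a choroid plexus covariate and each mouse left out. The choroid plexus covariate was also fitted over the 4 hippocampal groups, so outside the interaction it changed the mice fitted as well. A fit of the 12 hippocampal libraries under 2000 FPKM of choroid plexus markers was added after seeing the data. Gene positions come from GENCODE vM1 on mm9, and promoter windows from RefSeq on GRCm38.p6, matched by symbol. Python 3.11.15, numpy 2.4.6, pandas 2.3.3 and matplotlib 3.10.9 were used.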

Additional observations from a re-analysis of the deposited data

Results flagged for a closer look

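Ctsz in compound mouse 4, at 219 FPKM, lay far from the other 4 compound mice, with a gap to the nearest of them of 0.838 of the range of the group. It was 1 of 50 groups of 4 to 6 mice examined in this way, and chance marks about 1 group in 20. The same mouse had the highest summed microglia markers of its group (2742 FPKM), astrocyte markers (1311 FPKM) and oligodendrocyte markers (2114 FPKM), and the highest level of 8 cathepsins.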

How the results depend on the processing

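Over the alternatives for single cathepsins, 1304 of 1420 values kept their direction and their side of the threshold, 57 lost a call, 6 gained one and 53 changed sign, none of the last with an adjusted p under 0.82. In 5XFAD against control, 3 members in place of 5 were called without trend and robust moderation, with the replicate block and with the choroid plexus covariate, 1 with only libraries low in choroid plexus markers, and 3 to 5 with each mouse left out. In compound against control, 1 in place of 4 was called with the replicate block, 6 with all 4 groups in one fit or with the choroid plexus covariate, and 2 to 5 with each mouse left out. Ctss was called in all 19 alternatives of that comparison, and Ctsh gained its call without compound mouse 3 (adjusted p = 0.0353). The replicate block uses numbers that same-numbered mice do not share by design: the correlations of their deviations ran from -0.113 to 0.0778, none over 0.1. The block changed no call of the other comparisons except that of Ctsh in compound against Hdac1 cKO (adjusted p = 0.103). With each mouse left out included, calls over all genes ran from 26 to 129 in 5XFAD against control (102 as reported), 34 to 207 in compound against control (95), 148 to 261 in compound against Hdac1 cKO (211), 0 to 290 in Hdac1 cKO against control (22, with 290 without control mouse 1 and at most 21 otherwise), 1 to 4 in compound against 5XFAD (1), 0 to 7 in the interaction (0) and 2 to 9 in the nuclei (2). The cause of these shifts was not tested.

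The reversed values lay between -0.38 and 0.24. With libraries low in choroid plexus markers, chosen after seeing the data, the lone control is assumed to vary like the other groups. Hdac1 cKO against control then gave 0.18 for Ctsa, 0.042 for Ctsb, 0.073 for Ctsc, 0.16 for Ctsd, -0.045 for Ctsf, 0.058 for Ctsl and 0.17 for Ctsz. The same libraries gave Ctsk -0.18 in 5XFAD and -0.19 in compound against control, Ctsc 0.042 in compound against 5XFAD, and -0.059, -0.031 and -0.38 for Ctsa, Ctsc and Ctsh in the interaction. With the choroid plexus covariate, Hdac1 cKO against control gave 0.040 for Ctsa, -0.19 for Ctsf and 0.24 for Ctsk, compound against control -0.026 for Ctsf, compound against 5XFAD 0.091 for Ctsc and 0.13 for Ctsk, and the interaction 0.025 for Ctsf and -0.11 for Ctsk. The replicate block gave Ctsk 0.065 in compound against 5XFAD and, in the nuclei, 0.12 for Ctsb and -0.016 for Ctsc, while median scaling gave Ctsb 0.0066 there. With each mouse left out, Hdac1 cKO against control ran from -0.14 to 0.052 for Ctsa, -0.018 to 0.10 for Ctsf and -0.14 to 0.21 for Ctsh. Ctsk ran from -0.029 to 0.22 in 5XFAD against control, -0.13 to 0.21 in compound against control, -0.21 to 0.12 in compound against 5XFAD and -0.047 to 0.32 in the interaction, and Ctsc from -0.24 to 0.056 in compound against 5XFAD. In the nuclei the ranges were -0.038 to 0.18 for Ctsa, -0.11 to 0.12 for Ctsb, -0.12 to 0.18 for Ctsc, -0.049 to 0.17 for Ctsd and -0.035 to 0.24 for Ctsz. The deposited values hold no counts, so the depth behind low values such as those of Ctsk is unknown.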
